A study of Rattus norvegicus with 31 samples.

Results

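Synaptic vesicle and SNARE genes were followed in the rat striatum across 6 groups of animals. They were taken as every gene with a probe whose symbol is Syt, Stx, Stxbp, Vamp, Snap, Cplx, Rims or Syngr followed by a digit, or Syn1 to Syn3, Sv2a to Sv2c or Rab3a to Rab3d. The symbols define the family, and detection decided which of its genes could be tested. Under these symbols 62 genes had a probe (67 probes), and 36 of them reached a detection p under 0.01, against the negative control beads, on 4 arrays or more. These 36 genes, each by its brightest probe, were tested among 7088 named genes (9732 probes) in all.

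The striata came from male Sprague-Dawley rats, and the RNA of each was read on an Illumina RatRef-12 array (31 arrays). The hemiparkinsonian rats had 6-OHDA, a toxin of catecholamine neurons, injected into the medial forebrain bundle of the left side, and before they were assigned to METH or saline they had all been tested for apomorphine- and METH-induced rotation. At 2 h after METH at 2.5 mg/kg their striata gave 6 arrays of the DA-depleted side (ML) and 6 of the intact side (MNL), and after saline 6 arrays of the DA-depleted side (SL) and 5 of the intact side (SNL). Control rats that had no 6-OHDA gave 4 arrays after METH (MC) and 4 after saline (SC). Each array is named by the striatum number of its label. Which striata belong to the same rat is not labelled, so the p-values measure the spread between these striata only. The SNL arrays serve the comparisons of SL, MNL and ML alike, so these comparisons are not independent.

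Neurotransmitter leaves a nerve ending when a vesicle fuses with the plasma membrane. A SNARE protein of the vesicle (VAMP) zips together with SNAREs of the target membrane (syntaxin and SNAP25), Munc18 proteins (Stxbp genes) and complexins steer the assembly, and synaptotagmins trigger fusion when calcium enters. RIM proteins and Rab3 hold vesicles at the active zone, synapsins tie them into a reserve pool, and SV2 and synaptogyrins are membrane proteins of the vesicle itself. Most striatal nerve endings come from cortex, thalamus and midbrain, whose messages stay in the distant cell bodies, so messages for these proteins in striatal tissue come largely from cells that lie within the striatum. In whole tissue, fewer cells of a type and less RNA per cell cannot be told apart.

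Between 8042 and 9451 probes were detected per array. The defining messages of dopamine neurons were at background in this tissue: Th, Slc6a3, Slc18a2 and Ddc were detected on 0 arrays. All 10 medium spiny neuron markers with a probe (among them Drd1, Drd2 and Penk) and all 11 general neuron markers were detected and tested. Against SNL, the microglia and oligodendrocyte lists shifted on both sides: the median log2 fold change over 9 microglia markers was 0.23 for SL and 0.19 for MNL, and over 10 oligodendrocyte markers -0.29 for SL and -0.21 for MNL. For ML over MNL, without the SNL arrays, these 2 medians were 0.07 and 0.03. Over 7 astrocyte markers the median was -0.06 for SL over SNL, -0.07 for MNL over SNL and -0.07 for ML over MNL. Over 5 choroid plexus markers the same medians were 0.23, -0.17 and 0.33. Over the medium spiny neuron markers the median was -0.20 for SL over SNL, 0.12 for MNL over SNL and -0.16 for ML over MNL, and over the general neuron markers 0.01, -0.06 and 0.07. The medium spiny neuron values for SL over SNL ran from -1.01 to 0.54, with 3 positive and 7 negative. This list holds Tac1 and Pdyn, which the paper reports as lower on the DA-depleted side, so its median is no measure of cell content. The part of these shifts in the values below was not tested. Leaving out SC 6 or SNL 19 changed the values of several members, as given below.

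Detection was counted by role. Over the whole array, 9732 of 22519 probes passed the same rule. Of the SNARE proteins, 16 of 20 genes were tested, of the SNARE regulators 3 of 9 (Cplx1, Stxbp3 and Stxbp5) and of the synaptotagmins 6 of 15 (Syt1, Syt3, Syt4, Syt7, Syt12 and Syt16). Differences between these small groups were not tested, and the probe of a gene may also decide its detection. The active zone and Rab3 group had 5 of 8 (Rims1, Rims2, Rab3a, Rab3b and Rab3d) and the vesicle proteins 5 of 9 (Syn1, Syn2, Sv2a, Sv2b and Syngr3). The last tested gene, Snap91, encodes AP180, a clathrin assembly protein that shares the symbol but is no SNARE. Of the 36 tested genes, 27 were detected on all 31 arrays. The other 9 were Vamp5 (30 arrays), Syt4 (29), Syn2 (26), Vamp1 (22), Syt16 (20), Stx1a (14), Sv2a (13), Syt7 (12) and Syn1 (5, just inside the detection rule). Stx3 and Syt11, just outside it, were detected on 3 arrays. Of the 26 genes that were not tested, 20 were detected on 0 arrays, among them Sv2c, which encodes a vesicle protein of the basal ganglia, Syngr1 and Syt2.

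Syt2 and Syt10 stayed below the detection rule. Syt2, a fast calcium sensor, had median signals of 1.3 in ML, -0.089 in SL, -0.823 in MNL, 1.42 in SNL, -1.27 in MC and 0.414 in SC, where signals are background-subtracted intensities. Syt10, a synaptotagmin described in rat as inducible by neuronal activity, had median signals of 14.6 in ML, 10.9 in SL, 10.2 in MNL, 7.39 in SNL, 9.91 in MC and 10.1 in SC. It was detected on 1 ML array (signal 37.2) and 1 MNL array (signal 27.6) and on none of the SL, SNL, MC and SC arrays. From its arrays the paper lists Syt2 as lower for MNL over SNL and Syt10 as higher for ML over SNL. By qPCR, the paper found Syt10 raised after METH on both sides of lesioned rats, but not in control rats. Rab3c, a neuronal Rab3, was detected on 1 ML array (signal 26.3) only.

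**Figure D1:**
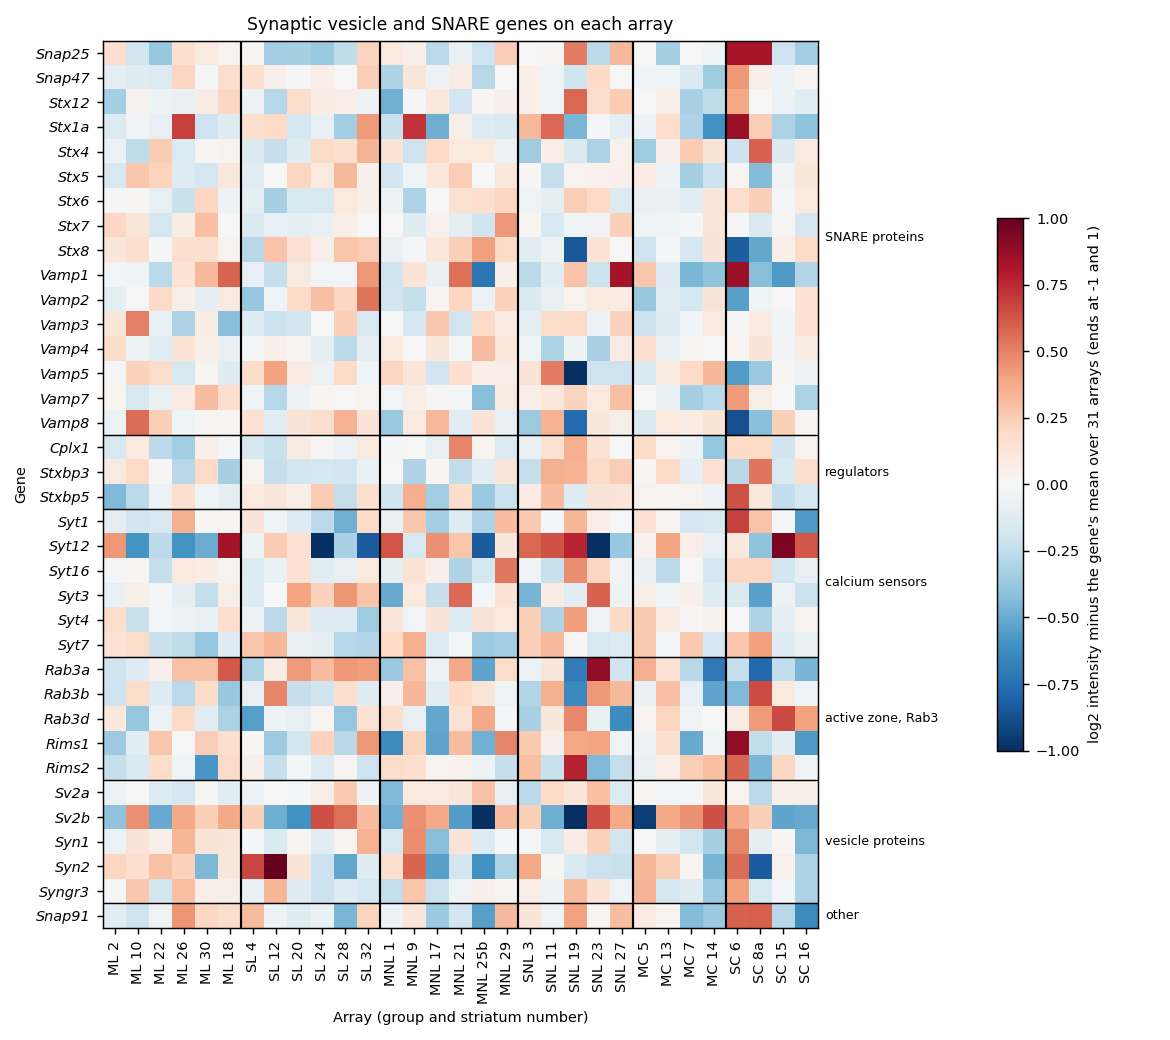
Log2 intensity of the 36 tested genes (rows, grouped by role) on each of the 31 arrays (columns, grouped as ML, SL, MNL, SNL, MC and SC), as the difference from the gene's mean over all arrays. Rab3a has the widest range of group means, 0.66 on the log2 scale.

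The neuronal SNAREs did not separate the groups. Snap25, the plasma membrane SNARE of synaptic release, had log2 intensities of 11.53, 11.98 and 12.08 in ML (lowest, median and highest), 11.54, 11.62 and 12.13 in SL, 11.64, 11.91 and 12.16 in MNL, and 11.65, 11.91, 11.93, 12.23 and 12.42 in SNL. The MC arrays had 11.58, 11.87, 11.91 and 11.92, and the SC arrays 11.57, 11.71, 12.74 and 12.74. The SC arrays fell into a low and a high pair, and all MC arrays lay below the high pair. Snap25 was -0.29 ± 0.18 (log2 fold change ± SE) for SL over SNL, with a 95% interval of -0.66 to 0.07 (-0.19 without SNL 19), and -0.37 ± 0.21 for MC over SC, with an interval of -0.80 to 0.06. Without SC 6 the MC over SC value was -0.19, and without SC 8a it was -0.19.

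Vamp2, the main vesicle SNARE of the forebrain, averaged 6.88 ± 0.11 in ML, 6.99 ± 0.31 in SL, 6.85 ± 0.20 in MNL and 6.85 ± 0.11 in SNL (log2 intensity, SD over arrays), and 6.72 ± 0.21 in MC and 6.74 ± 0.30 in SC. Its log2 fold changes were 0.14 ± 0.13 for SL over SNL, 0.00 ± 0.13 for MNL over SNL, 0.03 ± 0.13 for ML over SNL and -0.02 ± 0.15 for MC over SC. Only the first of these changes was above its standard error. Stx1a, a syntaxin of the presynaptic membrane, was dim: it was detected on 3 of 6 ML, 3 of 6 SL, 2 of 6 MNL, 2 of 5 SNL, 2 of 4 MC and 2 of 4 SC arrays, and its changes lay between -0.30 ± 0.26 (MC over SC) and 0.05 ± 0.21 (ML over MNL) among the group comparisons.

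Vamp1, a vesicle SNARE that prevails in brainstem and spinal cord, was detected on 5 of 6 ML, 6 of 6 SL, 5 of 6 MNL and 4 of 5 SNL arrays, but on 1 of 4 MC and 1 of 4 SC arrays. Its log2 intensity was 5.55 ± 0.30 in ML, 5.46 ± 0.22 in SL, 5.39 ± 0.42 in MNL, 5.54 ± 0.46 in SNL, 5.26 ± 0.34 in MC and 5.33 ± 0.66 in SC. Control rats thus had fewer arrays with Vamp1 detected, while its levels overlapped between all groups; the difference in detection was not tested. Among the members, Vamp1 and Syn1 carry in their promoters the palindrome TGACGTCA, the cAMP response element bound by CREB, a factor that D1 dopamine receptor signalling activates. The 300-base windows from RefSeq (build GRCr8) are shown for these 2, the only tested members whose window holds it, with the element in capitals. They lie at chr4:159698644-159698943 (Vamp1, plus strand) and chrX:3725495-3725794 (Syn1, plus strand), and the element starts 71 and 190 bases before the gene's start.
Vamp1: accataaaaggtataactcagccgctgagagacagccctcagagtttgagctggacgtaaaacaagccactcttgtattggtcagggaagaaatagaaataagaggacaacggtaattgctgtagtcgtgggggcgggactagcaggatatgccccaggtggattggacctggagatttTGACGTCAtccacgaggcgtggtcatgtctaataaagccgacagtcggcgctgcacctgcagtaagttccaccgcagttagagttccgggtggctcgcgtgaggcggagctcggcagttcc
Syn1: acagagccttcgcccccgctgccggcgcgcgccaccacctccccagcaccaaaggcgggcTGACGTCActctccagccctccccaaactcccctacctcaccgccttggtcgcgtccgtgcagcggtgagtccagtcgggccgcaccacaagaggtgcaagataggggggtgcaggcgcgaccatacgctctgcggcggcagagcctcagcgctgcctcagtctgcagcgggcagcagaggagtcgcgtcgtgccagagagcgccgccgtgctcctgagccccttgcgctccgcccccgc
The same 8 letters, read on either strand, stand in 1.83% of the 33469 promoter windows of the rat table, and in 2 of the 28 tested members with a window. The letters are a description and say nothing of binding. In the METH comparisons, Vamp1 had log2 fold changes of 0.09 ± 0.22 (ML over SL), -0.15 ± 0.23 (MNL over SNL) and -0.07 ± 0.27 (MC over SC), and Syn1 had 0.10 ± 0.13, -0.01 ± 0.14 and -0.14 ± 0.16. None of these exceeded its standard error.

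**Figure D2:**
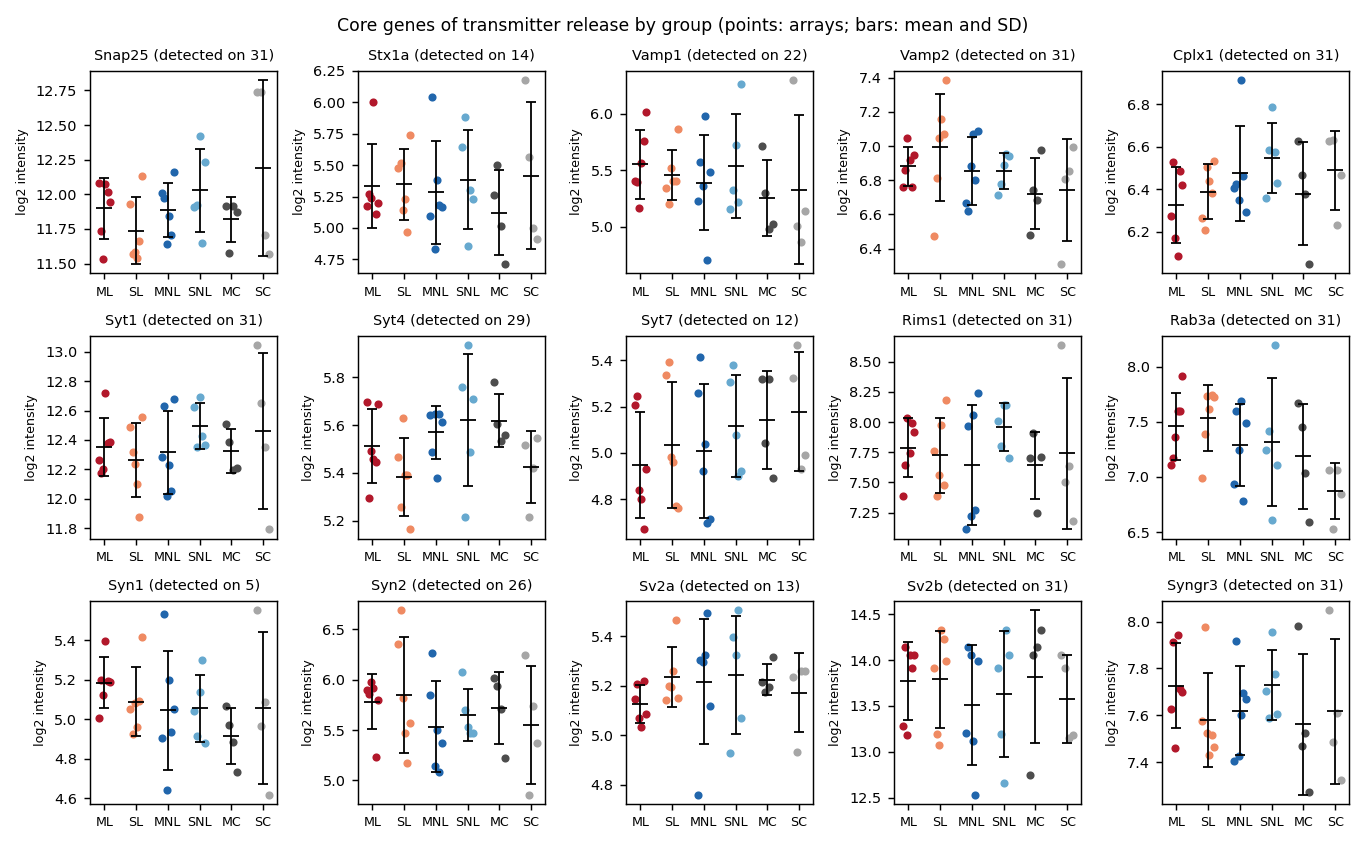
Log2 intensity of 15 core genes of transmitter release by group, in the order ML, SL, MNL, SNL, MC and SC; points are arrays, and bars give the mean and SD. Titles give the number of the 31 arrays on which the gene was detected. The ranges of the groups overlap in every panel for all pairs except ML and SC for Rab3a, which narrowly miss each other. The share of all tested probes with such a separation was not counted.

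Cplx1, a complexin of fast synapses, averaged 6.33 ± 0.18 in ML, 6.39 ± 0.13 in SL, 6.48 ± 0.22 in MNL and 6.55 ± 0.17 in SNL, and 6.38 ± 0.24 in MC and 6.49 ± 0.19 in SC (log2 intensity, SD). Its lesion difference, averaged over saline and METH, was -0.15 ± 0.08 (limma, interval -0.32 to 0.01, unadjusted p = 0.0643, adjusted p = 0.999). Syt1, the calcium sensor of synchronous release, averaged 12.35 ± 0.20 in ML, 12.26 ± 0.25 in SL, 12.32 ± 0.28 in MNL, 12.49 ± 0.16 in SNL, 12.32 ± 0.15 in MC and 12.46 ± 0.53 in SC. Syt4, a synaptotagmin of dense-core vesicles, had 5.16, 5.39 and 5.63 in SL (lowest, median and highest), against 5.22, 5.49, 5.71, 5.76 and 5.94 in SNL. The 2 ranges overlapped, and SNL 11 lay near the bottom of SL. The log2 fold change of Syt4 was -0.24 ± 0.11 for SL over SNL (limma, unadjusted p = 0.0335, adjusted p = 0.908), and without SNL 19 it was -0.16 (unadjusted p = 0.146). Syt7, a slower calcium sensor, was detected on 2 arrays of each group, and its changes in the 4 comparisons of treated or lesioned with saline striata were between -0.17 ± 0.15 (ML over SNL) and -0.04 ± 0.17 (MC over SC). Over the 6 tested synaptotagmins the median was -0.17 for SL over SNL and -0.12 for ML over SNL, beside medians of -0.02 and -0.01 over all tested probes; Syt3 was positive in the first (0.20 ± 0.15).

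Of the active zone genes, Rims1, the RIM scaffold, averaged 7.79 ± 0.24 in ML, 7.72 ± 0.31 in SL, 7.65 ± 0.50 in MNL, 7.96 ± 0.20 in SNL, 7.64 ± 0.28 in MC and 7.74 ± 0.63 in SC. The vesicle GTPase Rab3a had the widest range of group means among the 36 genes, 0.66 on the log2 scale. Its log2 intensities were 7.11, 7.48 and 7.92 in ML (lowest, median and highest), 6.99, 7.67 and 7.74 in SL, 6.78, 7.37 and 7.68 in MNL, and 6.61, 7.11, 7.24, 7.42 and 8.20 in SNL. The MC arrays had 6.59, 7.03, 7.45 and 7.67, and the SC arrays 6.52, 6.84, 7.06 and 7.07. The SC arrays had the lowest mean and lay narrowly below every ML array (highest SC 7.07, lowest ML 7.11), while the SNL range covered most of the range of all arrays. How many of all tested probes separate 2 groups in this way was not counted. Rab3a was 0.44 ± 0.25 for SNL over SC and 0.31 ± 0.26 for MC over SC, with intervals of -0.06 to 0.94 and -0.22 to 0.84. The first was 0.62 without SNL 19 and 0.22 without SNL 23, the lowest and the highest SNL array.

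The vesicle proteins Syn2 and Syngr3 showed no group pattern beyond their spread. Syn2, a synapsin, averaged 5.78 ± 0.27 in ML, 5.85 ± 0.57 in SL, 5.53 ± 0.45 in MNL, 5.65 ± 0.26 in SNL, 5.72 ± 0.36 in MC and 5.55 ± 0.59 in SC, and Syngr3, a synaptogyrin, lay between 7.56 ± 0.30 (MC) and 7.73 ± 0.15 (SNL). Sv2a, the vesicle protein that binds the antiepileptic levetiracetam, lay between 5.13 ± 0.08 (ML) and 5.24 ± 0.24 (SNL), and Syn1, the classic synapsin, between 4.91 ± 0.14 (MC) and 5.18 ± 0.13 (ML).

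After normalization, Sv2b, a close relative of Sv2a, fell into 2 separate ranges that did not follow the groups. On 12 arrays its log2 intensity was 12.53 to 13.28 and on 19 arrays 13.92 to 14.33, with no array in the gap of 0.64 between them. The low range was found on 2 of 6 ML, 2 of 6 SL, 3 of 6 MNL, 2 of 5 SNL, 1 of 4 MC and 2 of 4 SC arrays. The deposited signals were 4178 to 14140 on the low arrays and 14760 to 20230 on the high arrays, so they nearly met. Scaling by the median in place of quantile normalization gave the same split with a narrower gap (up to 13.28, and from 13.74). Quantile normalization sets such bright probes by their rank, and several Sv2b values are therefore repeated. From the top of all probes, Sv2b ranked 1 to 6 on the high arrays and 30 to 117 on the low arrays. Whether the split lies in the message or in the reading of so bright a probe was not tested. Neighbouring striatum numbers (1 and 2, 3 and 4, and so on) that shared a treatment lay on the same side of the gap in 12 of 13 pairs, the exception being 25b with 26. The numbers 5 with 6 and 7 with 8a pair METH with saline, so they come from different rats and are not counted. The arrays numbered 11 and 12 had 13.19 and 13.19, those numbered 21 and 22 had 13.12 and 13.18, and those numbered 23 and 24 had 14.33 and 14.33. Whether the other neighbours are the sides of 1 rat is not in the labels.

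Syt12, a synaptotagmin that binds no calcium, was as variable as Sv2b (SD within groups 0.59 for each, against a median of 0.24 over the 36 genes and 0.22 over all tested probes). It had 6.20, 6.42 and 7.64 in ML (lowest, median and highest), 5.74, 6.62 and 7.06 in SL, 5.97, 7.00 and 7.43 in MNL, and 5.59, 6.42, 7.38, 7.44 and 7.56 in SNL. The MC arrays had 6.72, 6.85, 6.87 and 7.20, and the SC arrays 6.40, 6.91, 7.42 and 7.74. Deviations from the group means in arrays with neighbouring numbers correlated at 0.77 for Syt12, 0.76 for Stx12 and 0.90 for Syt7 over these 13 pairs. The median of that correlation was 0.18 over the 36 genes and 0.30 over all tested probes. Arrays numbered 1 to 12 had 8730 to 9451 probes detected, and those numbered 13 to 32 had 8042 to 8717. Neighbouring numbers therefore also share this difference in detection, and its part in these correlations was not tested.

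**Figure D3:**
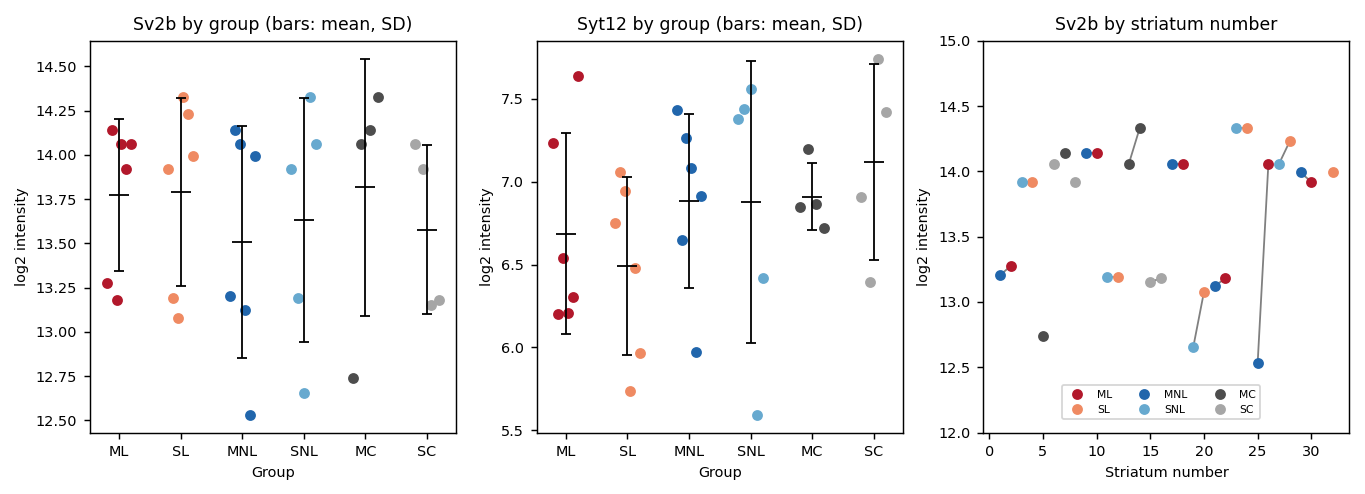
Log2 intensity of Sv2b and of Syt12 by group (points: arrays; bars: mean and SD), and Sv2b against striatum number with a grey line joining neighbouring numbers (1 and 2, 3 and 4, and so on) of the same treatment. Sv2b lies at 12.53 to 13.28 or at 13.92 to 14.33 in every group, and most grey lines stay on the same side of the gap.

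No member passed the test in any comparison. The moderated F test of limma for any difference among the 6 groups called 0 of the 36 genes at an adjusted p under 0.05, beside 0.37% of all tested probes, and 0 at an unadjusted p under 0.05, beside 7.13%. The 10 contrasts likewise called 0 members after Benjamini-Hochberg adjustment over 9732 probes. The share of all tested probes called was itself small: 0.0822% for SL over SNL, 0.113% for MNL over SNL, 0.0925% for ML over SNL, 0% for ML over SL, 0.123% for ML over MNL, 0.0103% for MC over SC and 0% for SNL over SC. For the contrasts built from several groups it was 0.175% for the lesion averaged over saline and METH, 0.123% for METH averaged over the 3 pairs of groups and 0% for the difference between the METH effects on the DA-depleted and the intact side. At background shares this low, a count of 0 among 36 genes does not set the members apart. The methods' t-test, run as an alternative on the 7 comparisons of 2 groups, called 0 of the 36 members, both after Benjamini-Hochberg adjustment and at 1.7-fold with an unadjusted p under 0.025. Without the detection rule, a choice made after seeing the data, it again called 0 of the 62 genes after adjustment. At 1.7-fold and an unadjusted p under 0.025 it then picked Stxbp5l (higher) and Syt2 (lower) for MNL over SNL, Syt10 (higher) for ML over SNL and Stx17 (higher) for SNL over SC, beside 0.586%, 0.573% and 0.657% of all 22519 probes. Stxbp5l, Syt2 and Stx17 were detected on 0 arrays and Syt10 on 2: the median signal of Stxbp5l, a relative of tomosyn, was 2.63 in MNL and -0.62 in SNL.

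**Figure D4:**
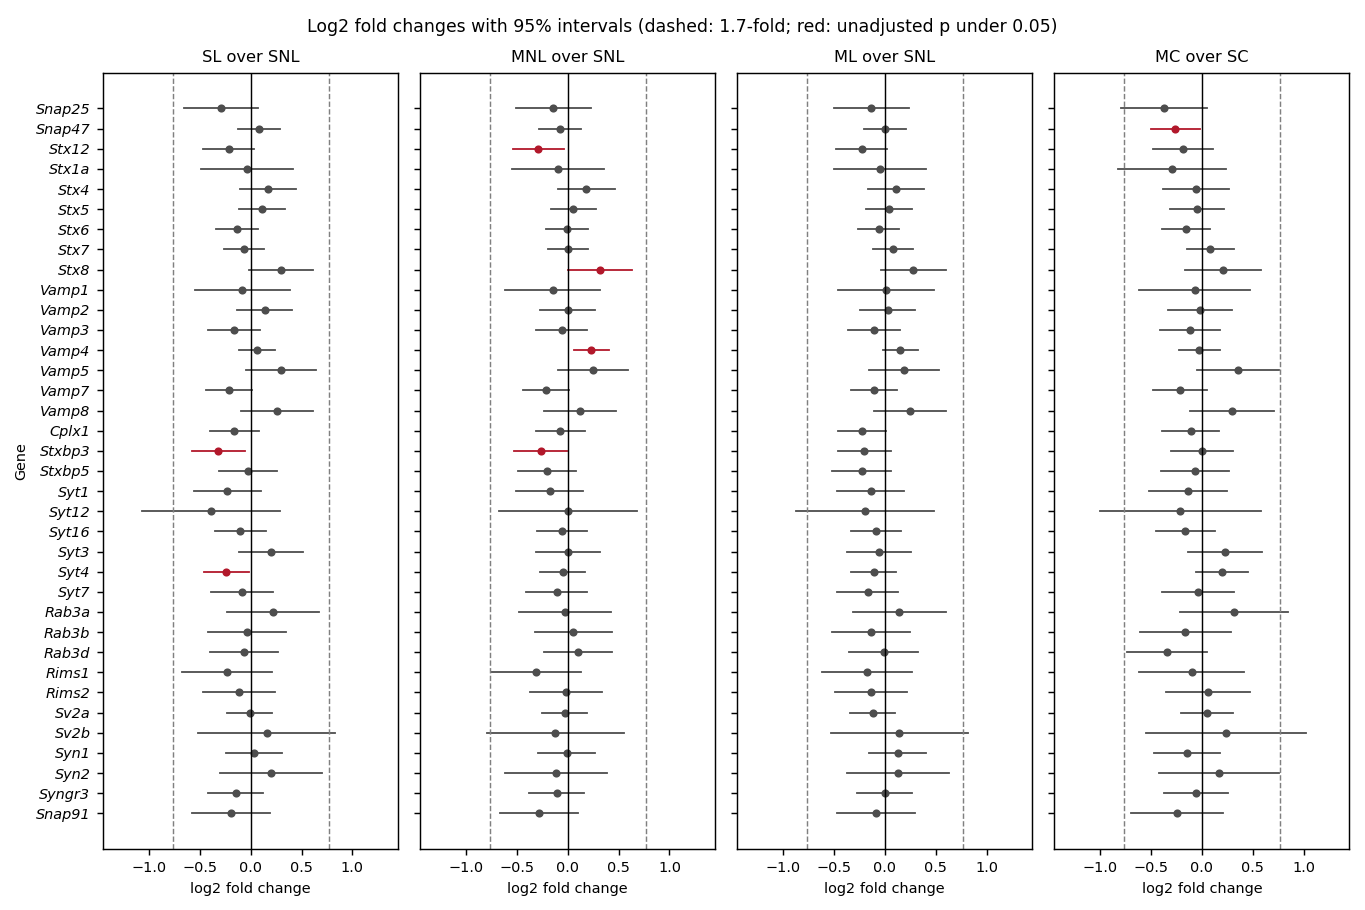
Log2 fold changes of the 36 genes with 95% intervals for SL over SNL, MNL over SNL, ML over SNL and MC over SC; dashed lines mark 1.7-fold and red marks an unadjusted limma p under 0.05. Most intervals lie inside the dashed lines, and those of Sv2b and Syt12 are the widest.

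In saline-treated lesioned rats (SL over SNL), 2 members were lower on the DA-depleted side at an unadjusted p under 0.05. So were 2.54% of all tested probes, and 0 members were higher. These sides differ in more than dopamine. The lesion was always on the left, and the paper also reports lower serotonin on the lesioned side. The part of each in these changes was not tested. Stxbp3, the Munc18 protein that pairs with syntaxin 4, had 9.39, 9.44 and 9.65 in SL (lowest, median and highest), against 9.38, 9.81, 9.87, 9.96 and 9.97 in SNL. Only SNL 3 lay within or below the SL range. The log2 fold change was -0.32 ± 0.13 (limma, interval -0.58 to -0.05, unadjusted p = 0.0197, adjusted p = 0.908), and without SNL 11 it was -0.27 (unadjusted p = 0.0562). Syt4 was the other. With neighbouring numbers of the same treatment as a random block, an alternative added after seeing the data, 7 members passed an unadjusted p under 0.05, beside 11.6% of all tested probes: Snap25 (-0.32), Stx12 (-0.21), Stxbp3 (-0.32), Syt4 (-0.22) and Vamp7 (-0.22) lower, and Stx8 (0.29) and Vamp5 (0.31) higher, all with an adjusted p of 0.32 or more. Over the 36 genes the median log2 fold change was -0.06, beside -0.02 over all tested probes, and 23 of the 36 values were negative.

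For METH on the intact side (MNL over SNL), 2 members were higher at an unadjusted p under 0.05 (2.67% of all tested probes) and 2 lower (2.54%). Vamp4, a SNARE of the trans-Golgi network and endosomes, had 9.02, 9.14 and 9.35 in MNL (lowest, median and highest), against 8.71, 8.72, 8.98, 8.99 and 9.12 in SNL, a log2 fold change of 0.23 ± 0.09 (limma, unadjusted p = 0.0107, adjusted p = 0.839). The ranges met only between 9.02 and 9.12. Stx8, a syntaxin of late endosomes, was 0.32 ± 0.16 (unadjusted p = 0.0499). SNL 19, at 8.68, lay far below the other SNL arrays (9.42 to 9.66), and without it the Stx8 value was 0.15 (unadjusted p = 0.299). Stx12, a syntaxin of recycling endosomes, had 7.42, 7.90 and 8.01 in MNL and 7.86, 7.95, 8.07, 8.16 and 8.48 in SNL, a change of -0.29 ± 0.12 (unadjusted p = 0.0266), which was -0.19 without SNL 19 (unadjusted p = 0.125). Stxbp3 was again low, at 9.31, 9.57 and 9.74 in MNL against the SNL values above (-0.27 ± 0.13, unadjusted p = 0.0464), with the same SNL arrays in both comparisons, and without SNL 11 it was -0.22 (unadjusted p = 0.114). None of the 4 belongs to the 15 core genes of release. The median was -0.05 over the members and -0.01 over all tested probes.

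For the DA-depleted side after METH, neither ML over SNL nor ML over SL nor ML over MNL had a member at an unadjusted p under 0.05. The lowest unadjusted limma p-values were 0.0673 for Cplx1 (-0.22 ± 0.12, ML over SNL), 0.0942 for Syt3 (ML over SL) and 0.188 for Cplx1 (-0.15 ± 0.11, ML over MNL). Medians over the members were -0.06, -0.01 and 0.00, beside -0.01, 0.00 and 0.00 over all tested probes.

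For METH in control rats (MC over SC), 1 member was lower at an unadjusted p under 0.05, as were 2.62% of all tested probes. Snap47, a widely expressed relative of SNAP25, had 7.17, 7.37, 7.47 and 7.48 in MC, against 7.46, 7.54, 7.58 and 7.95 in SC. The ranges touched only at 7.46 to 7.48. The change was -0.26 ± 0.12 (limma, unadjusted p = 0.0357, adjusted p = 0.77), and without SC 6, the highest array, it was -0.15 (unadjusted p = 0.203). With neighbouring numbers of the same treatment as a random block, 0 members had an unadjusted limma p under 0.05 here, beside 6.82% of all tested probes. The median over the members was -0.06, beside -0.02 over all tested probes.

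For the intact side of saline-treated lesioned rats over control rats (SNL over SC), 1 member was lower at an unadjusted p under 0.05, as were 1.99% of all tested probes. It was Rab3d, a Rab3 best known from secretory cells outside the nervous system. It had 7.63, 7.93, 8.19, 8.37 and 8.74 in SNL, against 8.33, 8.66, 8.68 and 8.92 in SC, a change of -0.48 ± 0.18 (limma, interval -0.85 to -0.10, unadjusted p = 0.0142, adjusted p = 0.986). This was the largest change of any member in the 7 group comparisons, 1.39-fold, and the groups overlapped. Without SNL 27 it was -0.34 (unadjusted p = 0.0677), without SNL 19 it was -0.62 (unadjusted p = 0.00156, adjusted p = 0.207) and without SC 6 it was -0.58. Here the members' median was 0.06, beside 0.00 over all tested probes, with 25 of 36 values positive. Over 11 general neuron markers it was 0.18, with 3 higher at an unadjusted limma p under 0.05, beside 2.09% of all tested probes. Over 10 medium spiny neuron markers the median was -0.18. Over the microglia, oligodendrocyte, astrocyte and choroid plexus markers it was -0.01, -0.04, 0.03 and 0.18. The part of these shifts in the members' values was not tested.

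For METH averaged over the 3 pairs of groups, 2 members were lower at an unadjusted p under 0.05, as were 4.61% of all tested probes: Snap47 (limma, -0.14 ± 0.06, unadjusted p = 0.0303) and Stx12 (-0.16 ± 0.07, unadjusted p = 0.0387), both with an adjusted p of 0.507. Without SC 6 they were -0.10 and -0.12 (unadjusted p = 0.0875 and 0.101). With neighbouring numbers of the same treatment as a random block, the alternative added after seeing the data, Snap47 did not stay under 0.05. Only Stx12 (-0.17) then had an unadjusted limma p under 0.05, beside 7.2% of all tested probes. For the lesion averaged over saline and METH, 0 members had an unadjusted p under 0.05, and Syt4 came nearest (-0.15 ± 0.07, unadjusted p = 0.0542). The METH effect on the DA-depleted side less that on the intact side was positive at an unadjusted p under 0.05 for 2 members, as for 1.2% of all tested probes: Stxbp3 (0.38 ± 0.18, unadjusted p = 0.0398) and Vamp7 (0.32 ± 0.15, unadjusted p = 0.0429), both with an adjusted p of 1. Vamp7, a SNARE of late endosomes and lysosomes, had 8.24, 8.46 and 8.72 in ML (lowest, median and highest), 8.12, 8.39 and 8.44 in SL, 7.98, 8.40 and 8.50 in MNL, and 8.48, 8.51, 8.52, 8.63 and 8.71 in SNL. All SNL arrays lay narrowly above all SL arrays (lowest SNL 8.48, highest SL 8.44), and SL over SNL was -0.21 ± 0.11 (limma, unadjusted p = 0.0623). The share of all tested probes with such a separation was not counted. The low MNL 25b set much of the MNL mean: without it the difference between METH effects was 0.25 (unadjusted p = 0.0974). Without SNL 11 that of Stxbp3 was 0.34 (unadjusted p = 0.0767).

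On the scale of the normalized values, the intervals bound what these arrays could have missed. The 95% intervals, not adjusted for the number of genes, lay wholly inside 1.7-fold in either direction (0.766 on the log2 scale) for 34 of 36 members in SL over SNL, 35 in MNL over SNL, 34 in ML over SNL, 35 in ML over SL, 34 in ML over MNL, 31 in MC over SC and 32 in SNL over SC. For SL over SNL and ML over SNL the exceptions were Sv2b and Syt12, and for MC over SC they were these 2 with Rab3a, Snap25 and Stx1a. With the lesion averaged over saline and METH, and with METH averaged over the 3 pairs of groups, all 36 intervals lay inside it. All these intervals took each striatum as independent. If arrays share a rat, those of METH averaged over the 3 pairs may be too narrow. For the difference between the METH effects on the 2 sides only 28 did. The median standard error was 0.144 for SL over SNL and 0.169 for MC over SC. For dim genes (Stx1a, Sv2a, Syt7 and Syn1) a level near background understates a change. The offset of 16, added to every signal before the logarithm, also shrinks the changes of other genes with low signals. Among them were Syt16 (median signal 22.6), Vamp1 (25.5), Syt4 (29.1), Syn2 (33.5), Vamp5 (37) and Syt3 (37.9). For these genes an interval inside 1.7-fold does not exclude a larger change of the message.

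Other genes of the pathway also stayed below the threshold. Of 64 listed genes (among them SNARE recycling factors, priming proteins, vesicular transporters, clathrin and endocytic proteins, and neurexins), 53 had a probe and 39 were tested, and 0 passed an adjusted p under 0.05 in the 10 contrasts. At an unadjusted limma p under 0.05, SL over SNL had 1 lower (Sypl1, a synaptophysin relative, -0.31 ± 0.15), beside 2.54% of all tested probes, and MNL over SNL had none. ML over SNL had 1 higher (Dnajc5, the vesicle chaperone CSP, 0.27 ± 0.12), beside 2.22%. MC over SC had 2 higher, beside 3.63%, Clta (a clathrin light chain, 0.45 ± 0.16) and Pacsin1 (an endocytic adaptor, 0.53 ± 0.25). SNL over SC had 4 of 39 higher, beside 2.09%: Clta (0.50 ± 0.15), Pacsin1 (0.58 ± 0.24), Nrxn2 (a presynaptic adhesion protein, 0.51 ± 0.19) and Syp (synaptophysin, 0.43 ± 0.18). The last 2 comparisons share the SC arrays, and for SNL over SC the general neuron markers also had a median of 0.18. METH averaged over the 3 pairs of groups had 2 higher, Dnajc5 (0.20 ± 0.07) and Clta (0.20 ± 0.08), beside 5% of all tested probes, and 1 lower, Slc17a6 (a vesicular glutamate transporter, -0.74 ± 0.36), beside 4.61%. Slc17a6 varied widely within groups, from 5.72 to 9.60 in SL and from 5.69 to 9.32 in MC (log2 intensity). Its SD over arrays lay between 0.31 (SNL) and 1.57 (MC). The difference between METH effects was positive for 1, Sypl1 (0.44 ± 0.21), beside 1.2%.

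Across arrays within groups, the mean of the core genes varied with markers of neurons, but single core genes did so unevenly. The mean of 15 core genes (Snap25, Stx1a, Vamp1, Vamp2, Cplx1, Syt1, Syt4, Syt7, Rims1, Rab3a, Syn1, Syn2, Sv2a, Sv2b and Syngr3) was 7.44 ± 0.09 in ML, 7.43 ± 0.08 in SL, 7.38 ± 0.20 in MNL, 7.48 ± 0.05 in SNL, 7.36 ± 0.11 in MC and 7.39 ± 0.28 in SC (log2 intensity, SD over arrays). SC 6 was highest of all 31 arrays at 7.79 and MNL 25b lowest at 7.14. After subtraction of the group means, this value correlated with the mean of the 11 general neuron markers at r = 0.844 (Spearman's rho = 0.852, permutation p within groups = 1e-05 for both, the smallest that 100000 permutations can give; adjusted over the 10 marker lists compared, 5e-05 and 1e-04). Without the 2 arrays farthest from the median, SC 6 and SL 28, r was 0.82, and without SC 6 alone, with the SC mean recomputed, it was 0.792. With 5 cortical projection neuron markers r was 0.703 (rho = 0.689, permutation p = 1e-05 and 8e-05, adjusted 5e-05 and 4e-04), and 0.641 without ML 26 and SC 6. With medium spiny neuron markers r was -0.367 (rho = -0.301, permutation p = 0.0161 and 0.079, adjusted 0.0402 and 0.132), and -0.274 without MNL 9 and SL 12. With Aldh1a1, the only dopamine neuron marker detected which other cells also express, r was 0.428 (rho = 0.517, permutation p = 0.0131 and 0.0058, adjusted 0.0402 and 0.0193), and 0.444 without ML 10 and MC 14. All these means share the arrays and their normalization, and the labels give no batch within which to repeat them. The permutations also took each striatum as independent. If arrays of different groups share a rat, these p-values may be too small. Taken singly, core genes correlated with the general neuron markers from -0.389 (Vamp2) to 0.672 (Syn1). Snap25 was at 0.235, Sv2b at 0.12, Syt4 at -0.019 and Syt1 at 0.605.

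**Figure D5:**
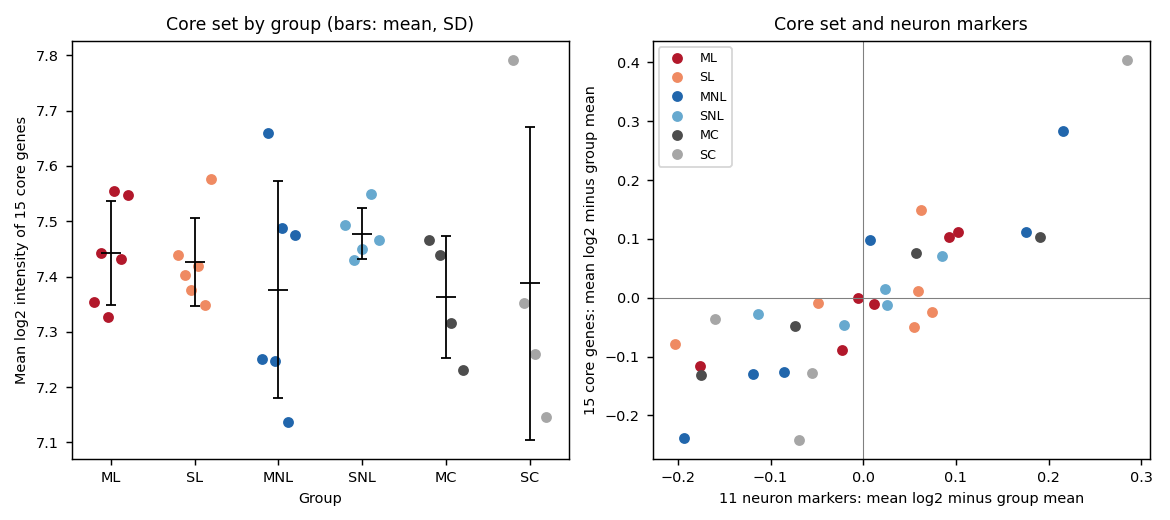
Left, mean log2 intensity of the 15 core genes by group (points: arrays; bars: mean and SD). Right, the same means against the mean of 11 general neuron markers, both as deviations from the group mean, for the 31 arrays; they correlate at r = 0.844, and SC 6 lies farthest up.

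Single members varied together to very different degrees. Deviations from the group means were most alike for Snap91 and Syt1 (r = 0.911), Stx1a and Stxbp5 (0.809), Snap25 and Snap91 (0.781) and Vamp1 and Vamp7 (0.762), over 31 arrays. They were most opposed for Rab3b and Rims2 (-0.745), Stx4 and Syngr3 (-0.709) and Stx12 and Vamp5 (-0.678). Over all 630 pairs of members the median was 0.02, and a first component held 24.9% of the variance within groups. These pairs are the 4 highest and the 3 lowest of all and are given as a description.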

How the data were processed

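The authors deposited BeadStudio signal intensity values (background subtracted, not normalized between arrays), each with a detection p-value. The authors deposited also log2 values of these signals less a constant of each probe (within 0.1 for 22519 probes on 30 arrays), used as an alternative; its column for ML 22 holds no such values and was left out (1 column not used). In the signal table, the columns of ML 22 and SL 32 stood 4 rows off their probes. They were moved back (correlation with the median array 0.213 and 0.215 as deposited, 0.985 and 0.986 after), and the first 4 probes were left out, so that 22519 probes remained.

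Probes were named through the platform annotation, with symbols updated from a rat gene table (13749 by gene ID, 5 by accession, 36 kept as given). Signals were background-corrected with normexp from the detection p-values (nec, offset 16), quantile normalized and log2-transformed in limma 3.58.1 (R 4.3.3). The 9732 probes that were detected (p under 0.01) on 4 arrays or more entered a fit of the 6 group means with lmFit and eBayes (25 residual and 4.85 prior degrees of freedom); p-values were adjusted by Benjamini-Hochberg over these probes, with a threshold of 0.05. Intervals are 95% t intervals of that fit. Correlations used 100000 permutations within groups. The number of arrays limits the precision.

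The members, the gene lists and the naming rule were chosen with earlier results of these data known. Genes named with values are members with an unadjusted p under 0.05 in a comparison (up to 3 in each direction), Syt2 and Syt10, and a core set of 21 genes listed by role, of which 15 were tested, 3 lay below the detection rule and 3 are not reported here; Syt12, Snap91 and the pairs of genes that vary together were named after their values were seen. The marker lists covered medium spiny neurons, cortical projection neurons, neurons in general, interneurons, dopamine neurons, oligodendrocytes, astrocytes, microglia, endothelium with mural cells, and choroid plexus. Promoter windows of 300 bases around a gene's start are RefSeq's of GRCr8. Alternatives changed the normalization, the background correction, the table, the filter on dim probes, the arrays in the fit, a block, the probe and the test, and left out each array. Figures were drawn with matplotlib 3.10.9 in Python 3.11.15.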

Additional observations from a re-analysis of the deposited data

Results flagged for a closer look

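Among 22 named members and the core set mean, 138 groups of 4 to 6 arrays were examined, and 13 held an array far from the others by Dixon's criterion; chance gives about 1 in 20 groups. All values are log2 intensities. High arrays were MNL 21 for Cplx1 (6.91, the others 6.29 to 6.46), ML 26 for Stx1a (6.00, the others 5.11 to 5.27), SL 28 for Sv2a (5.47, the others 5.14 to 5.26), SL 32 for Syn1 (5.42, the others 4.92 to 5.09) and SL 12 for Syngr3 (7.98, the others 7.43 to 7.57). Low arrays were MC 13 for Snap25 (11.58, the others 11.87 to 11.92), SNL 19 for Stx8 (8.68, the others 9.42 to 9.66), SNL 3 for Stxbp3 (9.38, the others 9.81 to 9.97), SC 8a for Sv2a (4.93, the others 5.24 to 5.26) and MC 5 for Sv2b (12.74, the others 14.06 to 14.33). ML 30 was also low for Syn2 (5.24, the others 5.80 to 5.98), and for Vamp7 SL 12 was low (8.12, the others 8.36 to 8.44), as was MNL 25b (7.98, the others 8.38 to 8.50).

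Below the detection rule, Syt10 was detected on 2 arrays outside the SC group, 1 ML and 1 MNL, and Rab3c on 1, an ML array; both were detected on 0 of the 4 SC arrays. No difference between METH effects on the 2 sides passed the adjusted threshold for a member.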

How the results depend on the processing

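The count of members called was 0 under the 43 alternatives, 31 of which left out 1 array each, in all 10 comparisons or, for the methods' t-test, in the 7 of 2 groups. The lowest adjusted p of any member was 0.193, for Snap25 in MC over SC with all neighbouring striatum numbers as a random block (consensus correlation 0.334), which also pairs METH with saline rats (5 with 6, 7 with 8a). With these left unpaired, a choice made after seeing the data (0.361), the lowest adjusted p in MC over SC was 0.733; the lowest under any other alternative was 0.207, for Rab3d in SNL over SC without SNL 19, and in the fit reported it was 0.507. With the first block, 7 members had an unadjusted p under 0.05 in SL over SNL (11% of all tested probes) and 5 in MC over SC (15.7%), and with the second 7 (11.6%) and 0 (6.82%). The groups compared share no replicate numbers, and the labels do not state this pairing. With no filter on dim probes, all 62 genes entered and the lowest adjusted p was 0.58 (Syt10, ML over SNL, 0.31). The medians over the members were small and some changed sign: over the alternatives ML over SL lay between -0.01 and 0.07, ML over MNL between -0.02 and 0.05, MC over SC between -0.12 and 0.0012, and the lesion averaged over saline and METH between -0.04 and 0.0083. Of 15174 single values, 623 took the other sign; the 12 named for an unadjusted p under 0.05 kept their sign in all 507 recomputations, but Stx8 (MNL over SNL) stayed under 0.05 in only 15 of 43, and Vamp4 (MNL over SNL) in 43 of 43. The correlation of the core gene mean with the neuron markers, recomputed after the data had been seen, was 0.684 with median scaling and 0.745 without background correction. Probes near background and the 4 to 6 arrays per group limit these values.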
